A study of Mus musculus with 32 samples.

Results

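Pol II occupancy was examined over 77 mouse genes that encode carriers for amino acids, sugars and organic ions, among 27179 genes in the table. The members were chosen by symbol alone: every gene named as Slc5a, Slc6a, Slc7a, Slc22a or Slc47a with its number. They comprise 13 Slc5 genes, 21 Slc6 genes, 15 Slc7 genes, 26 Slc22 genes and 2 Slc47 genes. Chromatin of mouse brain, heart, kidney and liver was immunoprecipitated with an antibody against RNA polymerase II (Pol II), directed at its C-terminal domain, and reads falling in each gene were counted. Tissue was either frozen, and then crosslinked in 1% formaldehyde for 30 min ahead of shearing, or formalin fixed (10%) and paraffin embedded (FFPE), and then cleared of paraffin and heated at 95 °C for 20 min during extraction. The labels name no strain, age, sex, genotype or treatment, and preservation and extraction differ together. The table holds 1 column for each organ and preservation, called a profile here, so that each organ has 2 profiles. The labels list 2 libraries for each such group, which differ in sequencing date and library kit, and the sources used here do not say whether a profile is 1 library or both.

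Solute carriers move small molecules across membranes, and many of these families use the sodium gradient. In the kidney, cells of the proximal tubule reclaim sugars, amino acids and monocarboxylates from the filtrate through Slc5, Slc6 and Slc7 carriers and secrete organic anions and cations through Slc22 and Slc47 carriers. Hepatocytes take up cationic amino acids and drugs through relatives of these genes, whereas neurons and glia use Slc6 carriers to clear GABA, glycine and monoamines from synapses.

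The level of a gene is a log2 value of its reads after scaling for depth, and a fold is a difference of such levels. Levels were compared between profiles and not between genes, because the counted length of each gene is unknown. The 8 profiles held 864816 to 2178329 reads in genes, and mitochondrial genes took 7.73% to 25.6% of them, most in FFPE heart (25.6%) and FFPE kidney (19.2%). Markers of the main cell type of each organ were highest in the profiles labelled with it, but those of astrocytes and choroid plexus were not highest in brain. The summed log2 level of 6 proximal tubule markers was 10.54 in frozen and 10.09 in FFPE kidney against 7.79 to 8.40 elsewhere, and that of 7 neuronal markers was 9.59 and 9.55 in brain against 6.77 to 7.95. The sum of 7 hepatocyte markers was 13.2 in frozen and 10.93 in FFPE liver against 6.13 to 7.19 in the other organs, and 5 cardiomyocyte markers summed to 12.52 and 11.44 in heart against 7.11 to 8.45. The 4 astrocyte markers summed to 7.21 in frozen and 6.93 in FFPE brain but to 8.32 and 7.93 in heart, where Gja1, also the gap junction gene of cardiomyocytes, was the 1 called (log2 fold 2.95), and 0 of the 4 passed in brain. The 4 choroid plexus markers summed to 5.82 and 6.11 in brain, the lowest of the organs in each preservation, and to 8.79 in frozen liver, where Ttr, also a hepatocyte gene, was called with 4.25. All 77 members passed the filter on low values. A member had between 1 and 1041 reads in a profile, with a median of 32, so that counting error is wide for many of them.

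The members leaned towards the kidney. Averaged over both preservations, the highest of the 4 organ levels was in kidney for 39 members (50.6%), in brain for 16, in liver for 15 and in heart for 7. Among all genes tested the kidney was highest for 21.5%. Kidney was the highest organ for 7 of 8 sodium glucose and sugar carriers, for 8 of 10 epithelial amino acid carriers, for 9 of 13 organic anion carriers and for 5 of 7 organic cation and carnitine carriers. The neurotransmitter uptake list was mixed, with brain highest for 5 of 11. These role lists were chosen with earlier results of these data known. Frozen and FFPE tissue named the same highest organ for 43 members (55.8%), against 40.9% of all genes tested.

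**Figure D1:**
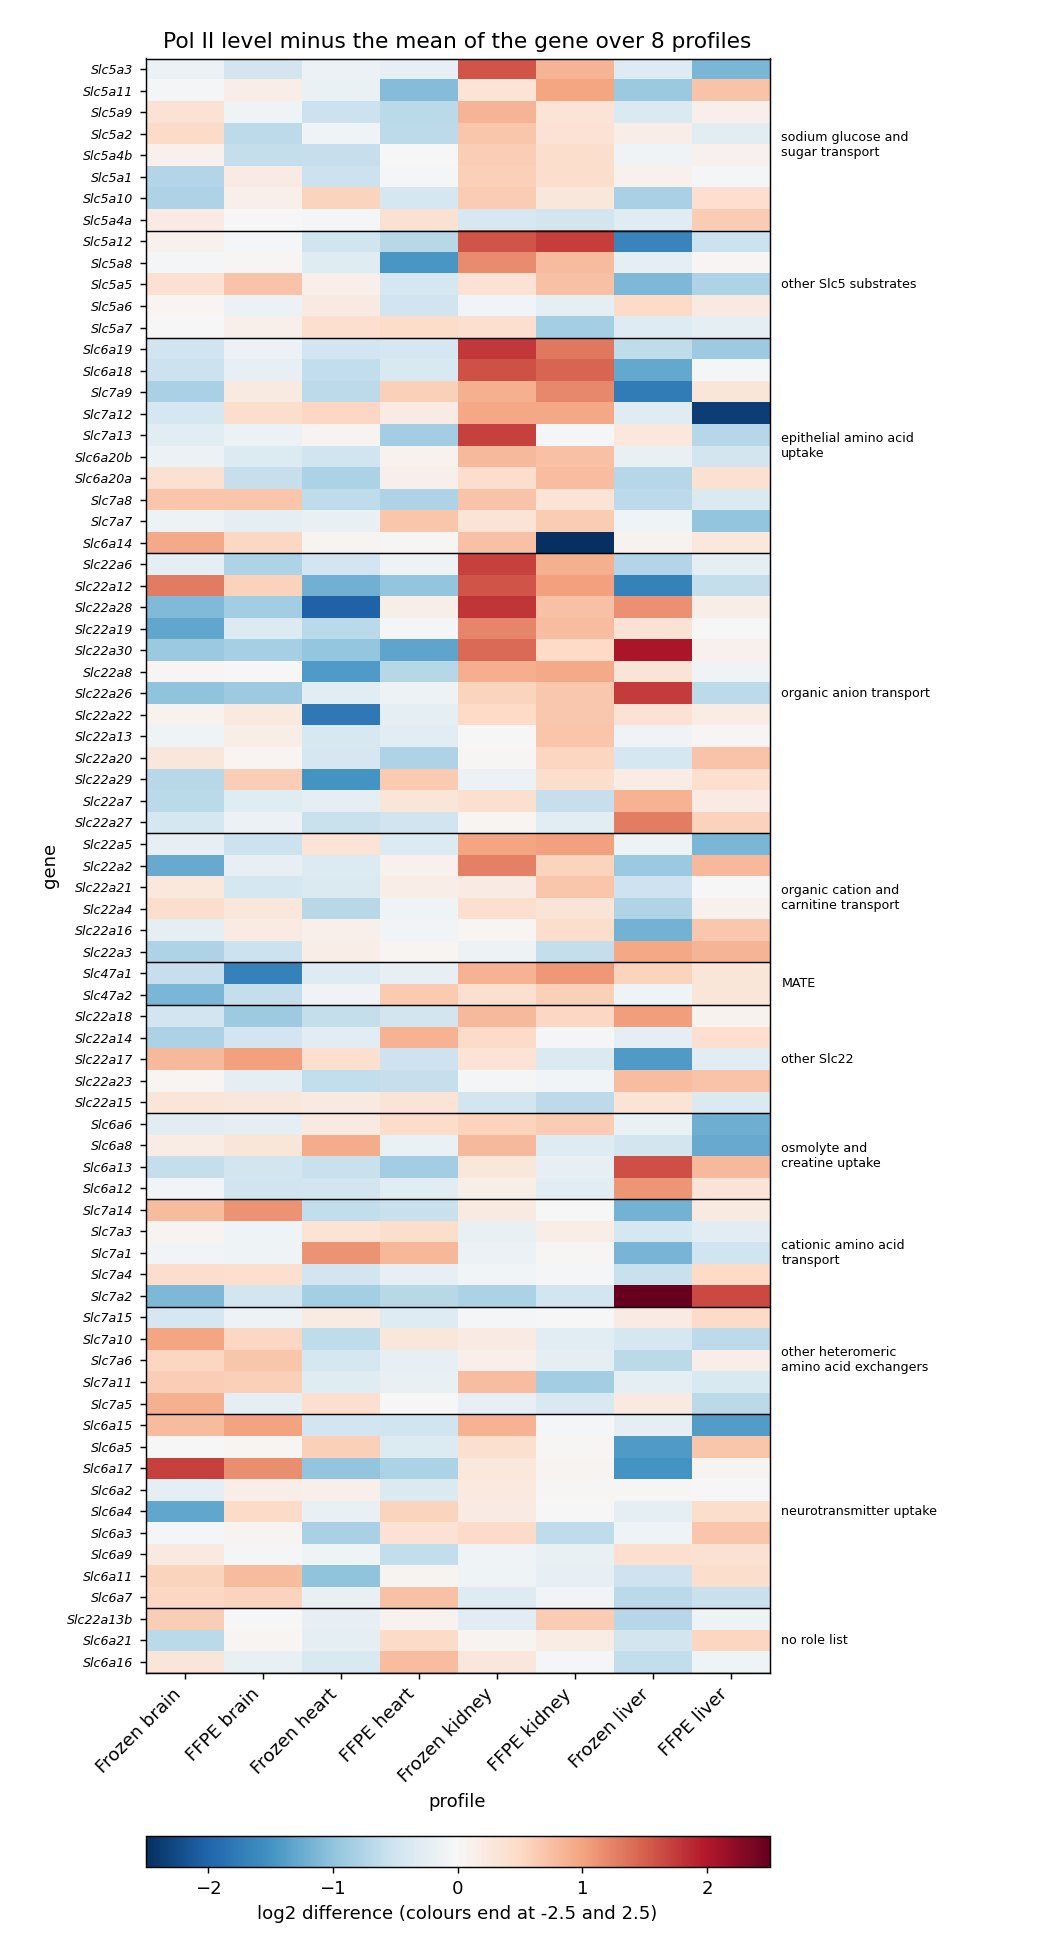
The heat map shows the transporter genes in rows, grouped by role, and the 8 profiles in columns. Colour is the log2 level minus the mean of that gene over the 8 profiles. Red fields gather in both kidney columns of the epithelial amino acid and organic anion groups, in both liver columns of Slc7a2, and in both brain columns of Slc6a17.

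Kidney was compared first with the other 3 organs, to ask which carriers held more Pol II there. limma called 9 of 77 members (11.7%) higher at an adjusted p under 0.05, against 0.919% of all genes tested. It called 0 members lower (0.456% of all genes). At an unadjusted p under 0.05, 26 members were higher and 2 lower, and the share of all genes at that level was not counted. The median log2 fold of the members was 0.38, and that of all genes was -0.00. For 18 members both kidney profiles lay above all 6 other profiles, which held for 4.92% of all genes, and for 2 both lay below them (3.05%). In bulk tissue, fewer cells of a type and less Pol II per cell cannot be told apart. Of the 6 proximal tubule markers, 5 were also called higher in kidney, among them Slc34a1, the phosphate cotransporter, with a log2 fold of 3.51 ± 0.28 (SE). The part of tubule cell number in the transporter folds was not tested.

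Both monocarboxylate carriers of the Slc5 family rose in kidney, and Slc5a12 had the largest fold of the 77. Slc5a12 (chr2:110597299-110649345, mm10), the low-affinity sodium lactate cotransporter of the tubule, had log2 levels of 6.87 in frozen and 7.03 in FFPE kidney. Its levels were 5.41 and 5.27 in brain, 4.80 and 4.61 in heart, and 3.65 and 4.77 in liver. Both kidney profiles stood above the other 6. The log2 fold was 2.20 ± 0.30 (SE, 2 against 6 profiles; limma adjusted p = 0.000185), or 4.58-fold. Slc5a8, the high-affinity carrier of lactate and ketone bodies, had 6.22 and 5.83 in frozen and FFPE kidney against 3.58 to 5.08 elsewhere, and rose by a log2 fold of 1.32 ± 0.32 (limma adjusted p = 0.033).

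Among the 8 sugar carriers only the inositol carrier passed the test. Slc5a3 (chr16:92058322-92087473), the sodium myo-inositol cotransporter that supplies an osmolyte to medullary cells, had levels of 8.996 in frozen and 8.27 in FFPE kidney. The other organs lay between 6.28 in FFPE liver and 7.28 in frozen heart, below both kidney profiles. Its log2 fold was 1.62 ± 0.22 (SE, 2 against 6 profiles; limma adjusted p = 0.000185). Slc5a3 lies inside Mrps6, a mitochondrial ribosomal protein gene, over 29138 bases, and Mrps6 was itself at 4.29 in frozen and 4.61 in FFPE kidney against 2.60 to 3.65 elsewhere. The sources used here do not say how reads of the overlap were assigned.

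The classical glucose carriers did not pass. Slc5a2 encodes SGLT2, which reclaims most filtered glucose, and had 5.45 in frozen and 5.10 in FFPE kidney against 5.22 and 4.09 in brain, 4.65 and 4.08 in heart, and 4.91 and 4.46 in liver. Its kidney fold was 0.71 on the log2 scale, with a 95% interval of 0.04 to 1.37 and an adjusted p of 0.428 (limma). Slc5a1 encodes SGLT1, the carrier of the late proximal tubule and intestine, and had a kidney fold of 0.69 (interval -0.02 to 1.40). The remaining members of the sugar list had kidney folds of 0.89 for Slc5a11 (a second inositol carrier), 0.79 for Slc5a9 (a mannose carrier), 0.70 for Slc5a4b, 0.62 for Slc5a10 and -0.57 for Slc5a4a. Over the 8 sugar carriers the median kidney fold was 0.70, and 1 was called. Slc5a10 shares 25893 bases with Fam83g, so its reads are uncertain in the same way.

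Neutral amino acid carriers of the brush border formed the next group. Slc6a19 (chr13:73679745-73700780) encodes B0AT1, the main apical carrier for neutral amino acids, and had log2 levels of 6.18 in frozen and 5.72 in FFPE kidney. The 6 other profiles spanned 3.49 to 4.25. Its neighbour Slc6a18 (chr13:73661750-73678023) encodes B0AT3, a glycine and neutral amino acid carrier, and had 6.52 and 6.38 in kidney against 3.65 to 4.88 elsewhere. Neither gene's kidney profiles overlapped those of another organ. The log2 folds were 2.07 ± 0.36 for Slc6a19 (limma adjusted p = 0.00261) and 2.04 ± 0.32 for Slc6a18 (adjusted p = 0.000932), or 4.19-fold and 4.10-fold on the linear scale.

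Collectrin, which both carriers need to reach the brush border, rose with them. Cltrn, its gene, had a kidney log2 fold of 3.88 ± 0.70 (limma adjusted p = 0.00354). Pdzk1, a scaffold of apical carriers, had a fold of 1.79 ± 0.34 (adjusted p = 0.00524). The other 4 of the 6 partner genes did not pass. Among them Slc3a1, the heavy chain that pairs with Slc7a9, had 0.98, Slc9a3r1 had 0.20 and Slc3a2 had -0.07. Slc7a9, the cystine carrier of that pair, had 4.83 and 5.13 in frozen and FFPE kidney against 2.18 to 4.54 elsewhere, with a log2 fold of 1.40 ± 0.44 and an adjusted p of 0.144. Both of its kidney profiles stood above the other 6, although the test was not passed.

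Over the 10 epithelial amino acid carriers 2 were called higher in kidney, and the median log2 fold was 1.07. The members not called ranged from Slc6a14, a broad amino acid carrier of intestine and lung, at -1.28 to Slc7a9 at 1.40. Slc6a20b, a relative of the proline carrier, had 1.03 ± 0.27 (adjusted p = 0.063), and its copy Slc6a20a, the proline carrier itself, had 0.80. Slc7a13, an acidic amino acid and cystine carrier of the straight tubule, had 1.11, from 5.61 in frozen kidney but 3.86 in FFPE kidney. Reads that fit near-identical copies such as Slc6a20a and Slc6a20b could be split either way by the counting.

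**Figure D2:**
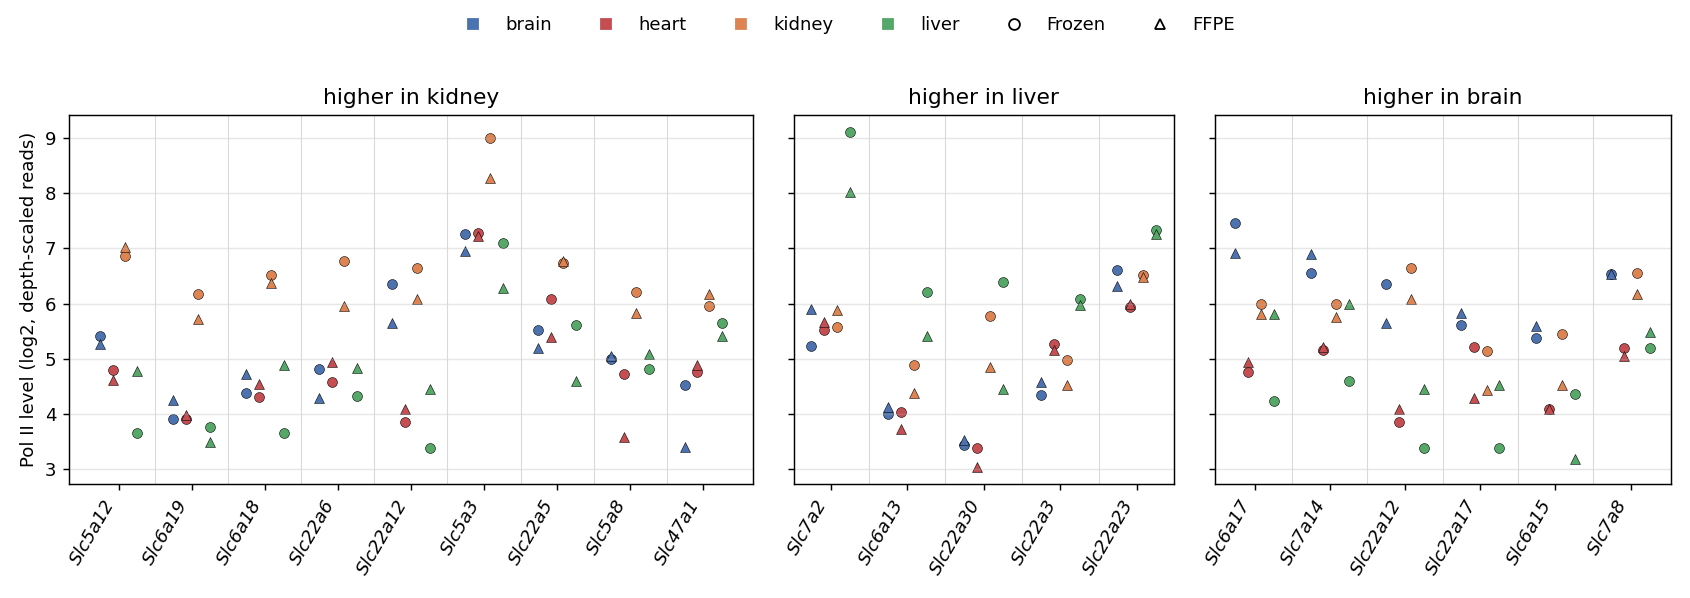
Each panel plots the log2 Pol II level of members called higher in kidney, liver or brain, with a circle for frozen and a triangle for FFPE tissue, coloured by organ. Both kidney points of Slc5a12, Slc6a19, Slc6a18 and Slc5a3 stand clear of the others, whereas Slc22a12 has kidney and brain points together at the top.

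Organic anion carriers of the Slc22 family contributed 2 of the kidney calls. Slc22a6 (chr19:8617996-8628299) encodes OAT1, the basolateral entry step for secreted organic anions and many drugs. It had log2 levels of 6.77 in frozen and 5.96 in FFPE kidney, against 4.82 and 4.28 in brain, 4.57 and 4.94 in heart, and 4.32 and 4.83 in liver. Both kidney profiles were the highest of the 8, and the log2 fold was 1.74 ± 0.32 (SE, 2 against 6 profiles; limma adjusted p = 0.00364). Slc22a8, which encodes OAT3 and lies 6160 bases from Slc22a6 on chromosome 19, had 5.59 and 5.64 in kidney, 5.01 and 4.59 in liver, 4.73 and 4.69 in brain, and 3.28 and 3.97 in heart. Its kidney fold of 1.24 ± 0.33 did not pass (adjusted p = 0.070), although the heart was called lower by a log2 fold of -1.42 ± 0.33 (limma adjusted p = 0.0119).

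Slc22a12 stood out by being high in a pair of organs. Its product URAT1 reclaims urate at the apical side of the tubule. The gene (chr19:6535854-6543070) had 6.64 in frozen and 6.08 in FFPE kidney and nearly as much in brain, 6.36 and 5.64. Heart lay at 3.85 and 4.08, and liver at 3.38 and 4.46. limma called it higher in kidney (log2 fold 1.73 ± 0.33, adjusted p = 0.00605) and in brain (1.25 ± 0.33, adjusted p = 0.0204), and lower in liver (-1.52 ± 0.33) and in heart (-1.46 ± 0.33). The neuronal adhesion gene Nrxn2 lies 2636 bases away, and its levels were 7.51 and 7.35 in frozen and FFPE brain, 6.91 and 5.64 in kidney, 6.19 and 5.80 in heart, and 4.72 and 5.90 in liver. Whether Pol II on Nrxn2 has a part in the Slc22a12 reads was not tested.

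The remaining organic anion carriers did not pass in kidney. Slc22a28, a rodent carrier of this family, had 5.93 and 4.88 in frozen and FFPE kidney and 5.29 and 4.31 in liver, against 3.03 and 3.26 in brain and 2.12 and 4.28 in heart; its kidney fold of 1.69 ± 0.50 did not pass (adjusted p = 0.108). Slc22a30, from the same run of genes, had 5.77 and 4.84 in kidney with a fold of 1.27 (adjusted p = 0.148) and is taken up with the liver. Kidney folds were 1.32 for Slc22a19, 0.83 for Slc22a26, 0.78 for Slc22a22, 0.46 for Slc22a13, 0.38 for Slc22a20, 0.20 for Slc22a29, -0.12 for Slc22a7 (OAT2) and -0.15 for Slc22a27, none past the threshold. Over the 13 organic anion carriers 2 were called higher in kidney, and the median log2 fold was 0.83.

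The start regions of 3 of these genes are shown because they lie in 1 run of neighbours. Slc22a6 was called higher in kidney, Slc22a30 in liver and Slc22a8 in neither. These calls do not show that the genes differ by organ. The mean level of Slc22a30 was 5.31 in kidney and 5.42 in liver. That of Slc22a8 was highest in kidney (5.62), although it did not pass there. HNF1 is a transcription factor of kidney tubule and liver. The 6 letters GTTAAT, or ATTAAC on the other strand, are 1 arm of the longer site it binds. Windows of 300 bases, 250 before and 50 after an annotated start, were available in RefSeq (GRCm38.p6) for 56 members, with 77 windows in all. The letters occur in 10 of 77 member windows (12.99%) and in 2332 of 32851 windows of all genes (7.10%). Of the 6 members called higher in kidney that have a window, 1 holds a match. The longer HNF4 core CAAAGTCCA (TGGACTTTG on the other strand) is in 0 of 77 member windows and in 0.475% of all windows. A match describes letters only and is not evidence of binding. In the following windows, printed 5′ to 3′ on the strand of the gene, capitals mark the 6 HNF1 letters. Slc22a6 covers chr19:8617746-8618045 on the plus strand with the match at position -56 from the start, Slc22a8 covers chr19:8592932-8593231 on the plus strand with the match at position -81, and Slc22a30 covers chr19:8405056-8405355 on the minus strand without a match.
Slc22a6: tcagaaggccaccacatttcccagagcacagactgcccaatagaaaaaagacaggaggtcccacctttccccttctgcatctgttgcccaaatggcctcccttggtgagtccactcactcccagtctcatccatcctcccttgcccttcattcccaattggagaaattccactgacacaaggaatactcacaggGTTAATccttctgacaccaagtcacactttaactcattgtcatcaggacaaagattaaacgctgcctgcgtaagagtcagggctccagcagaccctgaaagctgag
Slc22a8: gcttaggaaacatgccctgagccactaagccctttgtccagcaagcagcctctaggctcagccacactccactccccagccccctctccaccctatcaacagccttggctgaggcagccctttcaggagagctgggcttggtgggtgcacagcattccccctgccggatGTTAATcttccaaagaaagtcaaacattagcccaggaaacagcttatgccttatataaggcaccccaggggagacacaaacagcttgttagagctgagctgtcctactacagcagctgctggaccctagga
Slc22a30: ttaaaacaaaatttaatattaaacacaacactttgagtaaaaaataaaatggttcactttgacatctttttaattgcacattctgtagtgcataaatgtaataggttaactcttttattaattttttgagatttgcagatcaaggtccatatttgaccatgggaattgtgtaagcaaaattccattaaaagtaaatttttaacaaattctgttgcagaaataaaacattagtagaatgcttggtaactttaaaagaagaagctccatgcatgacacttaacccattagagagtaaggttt
The Slc22a30 window has a GC content of 27.7%, lower than that of the other pair.

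Carriers of organic cations and carnitine gave 1 kidney call. Slc22a5 (chr11:53864542-53891796) encodes OCTN2, which reclaims carnitine, and had 6.73 in frozen and 6.77 in FFPE kidney. The other organs spanned 4.59 in FFPE liver to 6.07 in frozen heart, below both kidney profiles. Its log2 fold was 1.35 ± 0.26 (limma adjusted p = 0.0061). Slc22a2 (OCT2, the basolateral cation carrier of the tubule) had 5.22 and 4.53 in frozen and FFPE kidney, but FFPE liver reached 4.77. Its fold was 1.20 ± 0.46 (adjusted p = 0.281). Kidney folds not past the threshold included 0.60 for Slc22a21, 0.49 for Slc22a4 (OCTN1), 0.32 for Slc22a16 and -0.48 for Slc22a3 (OCT3), and the median over the 7 genes was 0.60.

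MATE carriers complete cation secretion at the apical membrane. Slc47a1 (MATE1; chr11:61343400-61378842) had 5.96 in frozen and 6.17 in FFPE kidney, 5.65 and 5.41 in liver, 4.76 and 4.88 in heart, and 4.52 and 3.41 in brain. The order kidney, liver, heart, brain held in both preservations, and the kidney fold was 1.29 ± 0.31 (limma adjusted p = 0.032). Kidney and liver differed by 0.54, with an interval of -0.25 to 1.32 that includes 0. In brain Slc47a1 was called lower, by -1.51 ± 0.31 (limma adjusted p = 0.00274). Slc47a2 (MATE2), which lies 539 bases away, had 4.75 and 4.95 in kidney and 3.21 and 3.76 in brain; its brain fold of -1.16 missed the threshold (adjusted p = 0.0506).

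Members with high levels that did not pass in kidney were Slc6a6, the taurine carrier, with a log2 fold of 0.80, Slc22a15 with -0.74, Slc7a2 with -0.84, Slc5a6, the carrier of biotin and pantothenate, with -0.22, Slc7a1 with -0.08 and Slc22a23 with -0.08. The kidney count depended on single profiles: it was 0 without frozen kidney, 2 without FFPE kidney (Slc6a18 and Slc5a3) and 14 without frozen liver. Of the 8 fits that leave out 1 profile each, Slc5a8 and Slc47a1 were called higher in kidney in 3, and the other 7 members in 6 or 7. Of all genes tested, 246 were higher and 122 lower in kidney, and these counts were 336 and 101 once mitochondrial genes and scaling factors were left out. The all-gene count of higher genes also fell when either kidney profile was left out and rose without frozen liver. Without both FFPE heart and FFPE kidney, the kidney calls of Slc22a5, Slc47a1 and Slc5a8 did not hold, whereas the other kidney calls did. Their log2 folds were then 0.99, 0.98 and 1.37, against 1.35, 1.29 and 1.32 with all profiles.

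In liver the question was which carriers held more Pol II than in the other 3 organs. limma called 5 of 77 members higher, against 4.52% of all genes tested, and 8 lower, against 3.39%. The median log2 fold was -0.15 for the members and -0.02 for all genes. Both liver profiles lay above the other 6 for 8 members (7.29% of all genes) and below them for 6 (6.16%). Slc7a2 (chr8:40862341-40922070) encodes CAT2, which carries arginine and other cationic amino acids into hepatocytes. It had log2 levels of 9.12 in frozen and 8.02 in FFPE liver, from 1041 and 241 reads. The other organs lay between 5.24 in frozen brain and 5.90 in FFPE brain, far below both liver profiles. The log2 fold was 2.93 ± 0.27 (SE, 2 against 6 profiles; limma adjusted p = 2.21e-07), or 7.64-fold, and it was called with any single profile left out. All 7 hepatocyte markers were called higher in liver as well, with a median log2 fold of 4.86, and the part of hepatocyte number was not tested.

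Slc6a13 followed. It encodes GAT2, which takes up GABA and taurine at the hepatocyte surface, and shares its locus with Slc6a12, the betaine carrier BGT1, at a distance of 4852 bases. Slc6a13 (chr6:121300288-121337721) had 6.20 in frozen and 5.41 in FFPE liver, 4.88 and 4.39 in kidney, and 3.72 to 4.13 in brain and heart. Its log2 fold was 1.61 ± 0.34 (limma adjusted p = 0.00329). Slc6a12 had 5.77 and 4.98 in liver and 4.17 to 4.80 elsewhere, so that its liver profiles also lay above the rest, but its fold of 0.96 ± 0.33 did not pass (adjusted p = 0.084). The start window of Slc6a13 at chr6:121300490-121300789, plus strand, is printed for its HNF1 letters. Among the windows of the 4 liver-higher members that have one, it alone holds them, as ATTAAC (capitals) at position -68 from the start.
Slc6a13: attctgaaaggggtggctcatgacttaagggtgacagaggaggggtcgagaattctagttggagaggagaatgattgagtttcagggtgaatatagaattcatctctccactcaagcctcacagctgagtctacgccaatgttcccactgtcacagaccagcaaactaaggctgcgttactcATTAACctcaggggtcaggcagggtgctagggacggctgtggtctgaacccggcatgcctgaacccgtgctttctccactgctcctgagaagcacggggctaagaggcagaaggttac
The 2 other annotated windows of this gene have no match.

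The other liver calls were Slc22 genes. Slc22a30 had 6.39 in frozen liver but 4.46 in FFPE liver, from 157 and 20 reads, so that FFPE liver lay below both kidney profiles. Its log2 fold of 1.43 ± 0.40 (limma adjusted p = 0.028) was 2.20 in frozen and 0.66 in FFPE tissue. Slc22a3 encodes OCT3 and had 6.07 and 5.97 in liver against 4.34 to 5.27 elsewhere, with a log2 fold of 1.21 ± 0.29 (adjusted p = 0.00857). Its nearest coding gene is Plg, which lies closer to it than Nrxn2 does to Slc22a12. Whether Pol II on Plg has a part in the Slc22a3 reads was not tested. Slc22a23, a widely expressed member with no settled substrate, had 7.33 and 7.27 in liver against 5.94 to 6.61 elsewhere, and its fold of 0.99 ± 0.22 (adjusted p = 0.00486) was called with any single profile left out. The liver folds of Slc22a27 (1.24) and Slc22a7 (0.72) did not pass.

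The members lower in liver included carriers of osmolytes, creatine and arginine, but other carriers of these roles went the other way. Of the 4 osmolyte and creatine carriers 2 were lower and 1, Slc6a13, was higher. Of the 5 cationic amino acid carriers 1 was lower and 1, Slc7a2, was higher. Slc6a8, the creatine carrier, had 5.27 in frozen and 4.46 in FFPE liver, below all other profiles, which spanned 5.40 to 6.65. Its log2 fold was -1.15 ± 0.27 (limma adjusted p = 0.00896). Slc7a1 encodes CAT1, the cationic amino acid carrier of most other tissues, and had 5.06 and 5.73 in liver against 6.07 to 7.35 elsewhere, with a fold of -1.10 ± 0.24 (adjusted p = 0.00456). Slc6a6 had a fold of -0.93, from 6.98 in frozen but 5.92 in FFPE liver. The iodide carrier Slc5a5 had a fold of -1.26. The other 4, Slc22a12 (-1.52), Slc5a12 (-1.46), Slc5a3 (-0.97) and Slc22a5 (-0.85), are members called higher in kidney, whose profiles are among the 6 that liver was compared with.

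High-level members that did not pass in liver were Slc5a6 with 0.47, Slc22a15 with -0.01, Slc7a5, which encodes the large neutral amino acid carrier LAT1, with -0.31, and Slc7a8 with -0.67. The count of higher members was 2 without frozen liver (Slc7a2 and Slc22a23), and that of lower members was 5 without frozen liver, without FFPE brain or without FFPE kidney. Of the 8 fits that leave out 1 profile, Slc22a5 was called lower in 1, Slc5a5 in 3 and Slc6a6 in 4, Slc22a30 was called higher in 3, and the other 9 calls were made in 7 or 8. The Slc22a5 call (limma adjusted p = 0.0461) was also lost with voom weights (adjusted p = 0.0915). Of all genes tested, 1210 were higher and 907 lower in liver. Those counts were 1057 and 1248 with mitochondrial genes and scaling factors left out, which shifted the median of all genes to -0.14. Over all genes, fewer were also higher without frozen liver, and fewer lower without frozen liver, FFPE brain or FFPE kidney. Without both FFPE heart and FFPE kidney, the liver calls of Slc22a3, Slc22a5 and Slc6a6 did not hold.

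Brain was compared with the other 3 organs for the carriers of the neurotransmitter uptake list. limma called 7 of 77 members higher (3.43% of all genes tested) and 2 lower (4.02%). Both brain profiles lay above the other 6 for 7 members (8.40% of all genes) and below them for 4 (7.05%). Of the 11 genes of this list, 3 were higher, 0 lower and 8 did not pass, and its median log2 fold was 0.13 against 0.01 for all genes. The list also holds carriers of amino acids and of choline, and the 3 higher genes include the amino acid carriers Slc6a17 and Slc6a15. All 7 neuronal markers were called higher in brain, with a median log2 fold of 2.28.

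Slc6a17 had the highest brain fold of the 77. It encodes NTT4, a carrier of neutral amino acids on synaptic vesicles. The gene (chr3:107467548-107518018) had 7.46 in frozen and 6.91 in FFPE brain, 5.998 and 5.82 in kidney, 4.76 and 4.94 in heart, and 4.24 and 5.82 in liver. Both brain profiles stood above the other 6, and the log2 fold was 1.92 ± 0.31 (SE, 2 against 6 profiles; limma adjusted p = 0.000302), or 3.79-fold. Its start window at chr3:107517969-107518268, minus strand, is printed for its base content, with 26 CpG pairs and 63.7% GC. It lacks the 6 HNF1 letters, as do the windows of all 5 brain-higher members that have one. Over all genes 7.10% of windows hold these letters, so a lack of them is the common case.
Slc6a17: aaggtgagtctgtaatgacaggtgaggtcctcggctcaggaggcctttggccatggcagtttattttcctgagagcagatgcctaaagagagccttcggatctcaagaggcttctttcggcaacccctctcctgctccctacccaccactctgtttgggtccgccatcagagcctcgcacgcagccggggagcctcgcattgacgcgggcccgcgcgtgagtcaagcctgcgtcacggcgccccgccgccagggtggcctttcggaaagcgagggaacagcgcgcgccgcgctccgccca
By comparison the Slc22a6 window holds 2 CpG pairs, that of Slc22a8 holds 1 and that of Slc22a30 holds 0. These windows were picked by gene, and CpG pairs were not counted over the windows of all genes. They therefore do not describe the organs.

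Slc6a11, the GABA carrier of astrocytes, had 4.95 and 5.18 in frozen and FFPE brain, above the range of 3.38 to 4.83 elsewhere, with a fold of 0.90 ± 0.37 that did not pass (adjusted p = 0.179). Slc6a15, a neuronal carrier of branched-chain amino acids and proline, had 5.37 and 5.59 in brain, but 5.45 in frozen kidney, and rose by 1.20 ± 0.36 (limma adjusted p = 0.042).

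The monoamine and glycine carriers showed no brain call. Slc6a3 (dopamine) had 4.14 and 4.25 in frozen and FFPE brain against 3.38 to 4.88 elsewhere, and its brain fold was 0.01 with an interval of -0.88 to 0.91. Slc6a4 (serotonin) had a fold of -0.55 (interval -1.37 to 0.27), and Slc6a2 (noradrenaline) had -0.04 (interval -0.62 to 0.55). The glycine carriers Slc6a9 and Slc6a5 had folds of 0.13 (interval -0.42 to 0.68) and 0.03 (interval -1.05 to 1.10). Slc5a7, the choline carrier of cholinergic neurons, had 0.09, and Slc6a7, the brain proline carrier, had 0.72 (interval 0.06 to 1.38, adjusted p = 0.222). Most of these intervals are wide enough to hold a brain excess of 0.5 or more.

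The remaining brain calls came from outside the neurotransmitter list. Slc7a14, a lysosomal relative of the cationic amino acid carriers, had 6.56 in frozen and 6.90 in FFPE brain against 4.599 to 5.998 elsewhere, with a fold of 1.27 ± 0.28 (limma adjusted p = 0.0056). Slc22a17, known as a receptor for lipocalin, had 5.61 and 5.83 in brain against 3.38 to 5.22, with a fold of 1.22 ± 0.37 (adjusted p = 0.042). Slc7a8 encodes LAT2, a neutral amino acid exchanger, and had 6.53 and 6.53 in brain and 6.55 and 6.17 in kidney, against 5.06 to 5.48 in heart and liver. It was called higher in brain by 0.93 ± 0.24 (adjusted p = 0.0197) and lower in heart by -0.95 ± 0.24. Slc7a2 was lower in brain, by -1.06 ± 0.27, beside Slc47a1. Its mean level in brain was 5.57, near 5.595 in heart and 5.73 in kidney. Liver, at 8.57, is among the organs that brain was compared with. Of the 5 other amino acid exchangers none was called in brain, and their median fold was 0.81, from -0.36 for Slc7a15 to 1.00 for Slc7a10, the alanine, serine and cysteine exchanger of astrocytes.

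The brain count of higher members was 0 without frozen brain, 1 without FFPE brain (Slc6a17), 3 without FFPE kidney and 2 without both FFPE heart and FFPE kidney, the pair of profiles with the highest mitochondrial shares. The count of lower members was 8 without FFPE liver, 0 without FFPE heart and FFPE kidney, and 1 without either brain profile, FFPE heart or FFPE kidney. Of the 8 fits that leave out 1 profile, Slc6a15 was called in 3, and Slc22a17, Slc22a12, Slc7a8 and Slc7a2 in 4 each. With no filter on low values the limma adjusted p was 0.0535 for Slc6a15 and 0.0564 for Slc22a17, so that both calls were lost, and that of Slc22a17 was also lost with reads added in proportion to depth (adjusted p = 0.0513). Over all genes, the counts of higher and lower genes moved in the same direction in each fit whose member count is given. High-level members that did not pass in brain were Slc5a3 with -0.41, Slc6a6 with -0.33, Slc22a23 with -0.12 and Slc22a15 with 0.38.

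Heart, which has no absorptive epithelium, gave 1 member higher (3.06% of all genes tested) and 9 lower (2.18%), with a median fold of -0.36. Both heart profiles lay above the other 6 for 2 members (7.66% of all genes) and below them for 9 (5.62%). Slc7a1 had 7.35 in frozen and 7.05 in FFPE heart, above the range of 5.06 to 6.25 elsewhere, and rose by 1.31 ± 0.24 (limma adjusted p = 0.00153). The members lower in heart included the organic ion carriers Slc22a30 (-1.53), Slc22a12, Slc22a8 and Slc22a23 (-0.79), the monocarboxylate carrier Slc5a8 (-1.18), and Slc6a17 (-1.19), Slc7a2 (-1.03) and Slc7a8. The mean level of Slc7a2 was 5.595 in heart, near 5.57 in brain and 5.73 in kidney, and only liver was far higher (8.57). The count of lower members was 0 without frozen heart, 2 without FFPE heart, 2 without frozen kidney, 3 without FFPE brain, 4 without FFPE kidney, 5 without frozen brain and 2 without both FFPE heart and FFPE kidney. Slc22a8 was called lower in 7 of the 8 fits that leave out 1 profile and the other members named in 2 to 4, and the calls of Slc5a8 and Slc6a17 were lost with voom weights. The count of higher members was 0 without frozen heart and 2 without frozen liver. Over all genes, the heart counts moved in the same direction in each fit whose member count is given. With limma's voom weights, 1195 of all genes were higher and 339 lower in heart, against 819 and 582 without weights.

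Kidney and liver together were then set against brain, to contrast epithelial and hepatic transport with neurotransmitter uptake. limma called 5 of 77 members higher in kidney and liver, against 3.94% of all genes tested, and 4 lower, against 3.51%. The higher ones were the organic anion carriers Slc22a28 and Slc22a30 with log2 folds of 1.95 ± 0.53 and 1.88 ± 0.42, Slc47a1 with 1.84 ± 0.33, Slc7a2 with 1.58 ± 0.29 and Slc22a18, an imprinted member of the family, with 1.30 ± 0.38 (SE, 4 against 2 profiles). The lower ones included Slc6a17 with -1.72 ± 0.33, Slc22a17 with -1.35 ± 0.39 and Slc7a14 with -1.14 ± 0.30. Slc22a18 had 5.24 and 4.95 in frozen and FFPE kidney and 5.47 and 4.53 in liver, above brain at 3.96 and 3.53 and heart at 3.85 and 3.97. Of the 8 fits that leave out 1 profile, Slc22a18 was called in 3 and Slc22a28 and Slc22a17 in 4 each, and the call of Slc22a18 was lost with mitochondrial genes and scaling factors left out (limma adjusted p = 0.0557). Of the 9, only the Slc7a2 profiles overlapped between brain and the pair of organs. Its mean level was 5.57 in brain and 5.73 in kidney but 8.57 in liver. Over all members, the kidney and liver profiles lay above both brain profiles for 11 (11.7% of all genes) and below them for 8 (12.6%).

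By role, 2 of 13 organic anion carriers and 1 of 2 MATE carriers were higher in kidney and liver. Of the 11 genes of the neurotransmitter uptake list 2 were lower, among them the amino acid carrier Slc6a17. None of the 8 sugar carriers, 10 epithelial amino acid carriers or 7 cation and carnitine carriers was called in this contrast, which averages kidney with liver. Median folds were 0.70 for organic anion carriers, 0.56 for cation and carnitine carriers, and 0.39 for sugar and for epithelial amino acid carriers alike. The median was -0.31 for the neurotransmitter uptake list, against -0.01 for all genes. The count of higher members was 1 without frozen brain, 2 without FFPE brain, 3 without frozen kidney and 9 without FFPE liver. That of lower members was 0, 1, 2 and 7 without frozen brain, FFPE brain, FFPE kidney and FFPE liver in turn, and 2 without both FFPE heart and FFPE kidney. Over all genes, 1055 were higher with all profiles. That count was 158 without frozen brain, 449 without FFPE brain, 794 without frozen kidney and 1765 without FFPE liver. All-gene counts of lower genes also moved in the same direction as the members in each fit named.

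**Figure D3:**
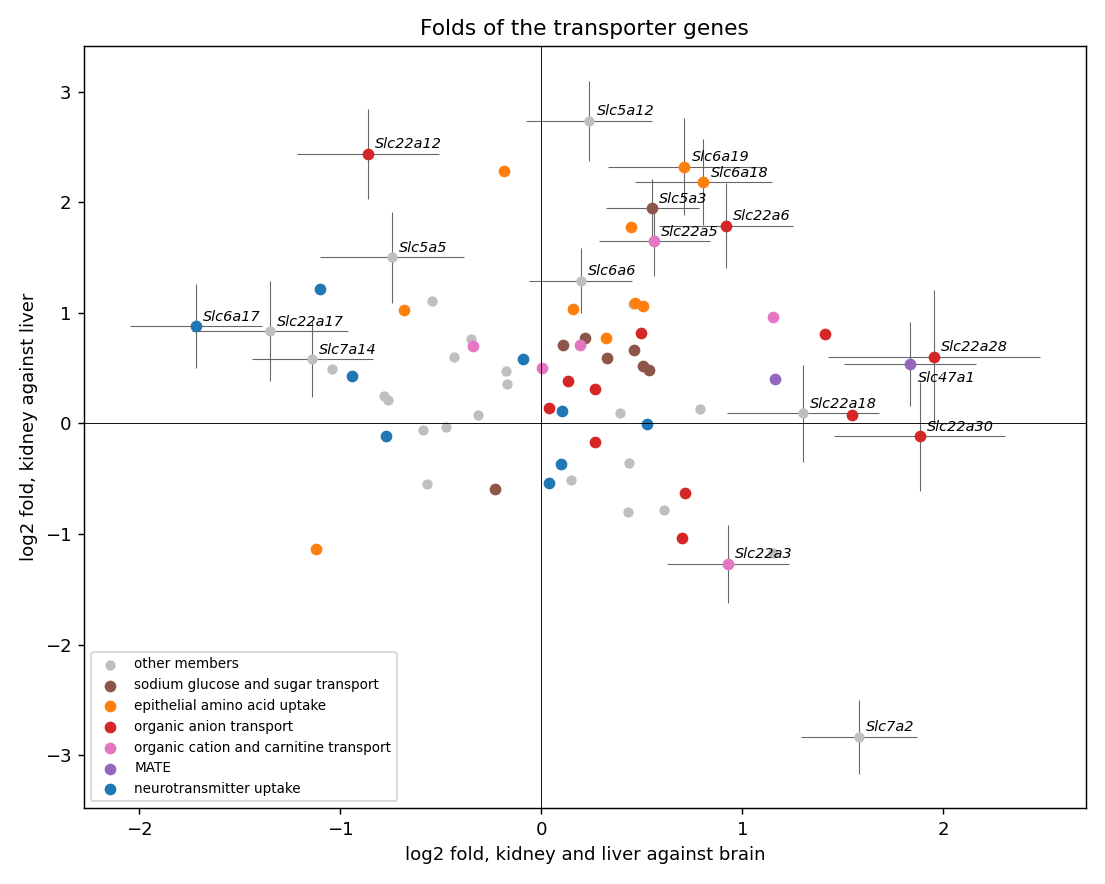
Each point is 1 transporter gene, with the log2 fold of kidney and liver against brain on the x axis and that of kidney against liver on the y axis, coloured by role. Named genes passed the test in at least 1 contrast, with SE bars. Slc5a12 and Slc22a12 lie at the kidney end of the vertical axis and Slc7a2 at the liver end (-2.83), while Slc6a17 lies at the brain end of the horizontal axis.

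Kidney was also compared with liver directly, to set renal against hepatic carriers. limma called 9 of 77 members higher in kidney, against 1.43% of all genes tested, and 2 higher in liver, against 2.34%. The median log2 fold of the members was 0.50, and that of all genes was 0.03. The kidney side held Slc5a12 (2.74 ± 0.36), Slc22a12 (2.44 ± 0.41), Slc6a19 (2.32 ± 0.44), Slc6a18 (2.18 ± 0.39), Slc5a3 (1.94 ± 0.27), Slc22a6 (1.79 ± 0.39), Slc22a5 (1.65 ± 0.32), Slc5a5 (1.503 ± 0.41) and Slc6a6 (1.29 ± 0.29), each as a log2 fold with SE over 2 against 2 profiles. The liver side held Slc7a2 (-2.83 ± 0.33) and Slc22a3 (-1.27 ± 0.35). Slc22a30 had -0.12, the mean of -0.62 in frozen and 0.38 in FFPE tissue.

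The kidney count was 3 without frozen kidney and 15 without FFPE liver. Slc5a5 was called in 3 of the 8 fits that leave out 1 profile, and its call was lost with no filter on low values (limma adjusted p = 0.0523). On the liver side only Slc7a2 was left with any single profile omitted, and Slc22a3 was lost each time. Of all genes tested, 382 were higher in kidney and 625 in liver, against 569 and 525 with mitochondrial genes and scaling factors left out, a setting that moved the median of all genes to 0.18. Quantile normalization gave 600 and 591. The all-gene count of genes higher in kidney also fell without frozen kidney and rose without FFPE liver.

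Many members lie next to one another in the genome. With no coding gene between them, 31 members form 20 neighbouring pairs. The longest run, on chromosome 19, holds Slc22a19, Slc22a26, Slc22a27, Slc22a28, Slc22a29, Slc22a30, Slc22a8 and Slc22a6, with gaps between 6160 and 186142 bases. Along it the log2 fold of kidney against the other organs was 1.32, 0.83, -0.15, 1.69, 0.20, 1.27, 1.24 and 1.74, and that of liver was 0.24, 0.73, 1.24, 0.88, 0.42, 1.43, 0.15 and -0.65. The run thus had its highest liver folds at Slc22a30 and Slc22a27 and its highest kidney folds at Slc22a6 and Slc22a28. On chromosome 17 the neighbours Slc22a3 and Slc22a2 had liver folds of 1.21 and -0.08 and kidney folds of -0.48 and 1.20. The part of Pol II on Plg, the coding gene nearest to Slc22a3, in the Slc22a3 folds was not tested. On chromosome 13, Slc6a18 and Slc6a19 were both called in kidney, 1721 bases apart. Of the members, 35 overlap another annotated gene, and reads of overlapping genes cannot be separated here. Apart from Slc5a3, the called members that overlap one do so with a noncoding RNA or a pseudogene.

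Carriers of other families gave a further view of the same organs. Of 16 other renal and hepatic carriers 6 were called higher (4.52% of all genes) and 1 lower (3.39%) in liver, and 1 higher in kidney (0.919%). The bile acid and drug uptake carriers Slco1b2 and Slco1a1 had liver log2 folds of 3.22 ± 0.39 and 3.17 ± 0.37, above that of every member, and the canalicular pump Abcc2 had 2.40 ± 0.25. In kidney the called gene was Slc17a1, an apical urate and phosphate carrier, with 1.76 ± 0.36. The glucose carrier Slc2a4 was called lower in liver, by -1.20 ± 0.33. Of 13 brain uptake and vesicular carriers outside the 5 families, 3 were called higher in brain (3.43% of all genes) and 1 lower (4.02%). The higher ones were Slc17a7, the vesicular glutamate carrier, with 2.67 ± 0.38, Slc38a1, a glutamine carrier, with 1.39 ± 0.23, and Slc1a2, the glutamate carrier of astrocytes, with 1.11 ± 0.22. The lower one was Slc38a3, a glutamine carrier, with -1.32 ± 0.28. In liver 2 of the 13 were higher, Slc38a3 with 1.90 ± 0.28 and Slc17a8 with 1.42 ± 0.34, and Slc38a1 was lower.

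FFPE was compared with frozen tissue over the 4 organs, to ask whether preservation moves the members. limma called 0 of 77 members higher (0.153% of all genes tested) and 0 lower (0.422%). At an unadjusted p under 0.05, 3 were higher and 7 lower, and the share of all genes at that level was not counted. The lowest p belonged to Slc6a8, with a log2 fold of -0.73 (interval -1.22 to -0.24; adjusted p = 0.225), and the next to Slc7a9, with 1.17 (interval 0.38 to 1.95). Of the 9 kidney-higher members 7 had the smaller fold in FFPE tissue, with a median of 1.61 against 2.11 in frozen tissue. The 5 liver-higher members had medians of 1.22 and 1.90, and the 7 brain-higher members had 1.39 and 1.30. FFPE liver and FFPE heart had the fewest reads, and the part of depth in the smaller folds was not tested.

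**Figure D4:**
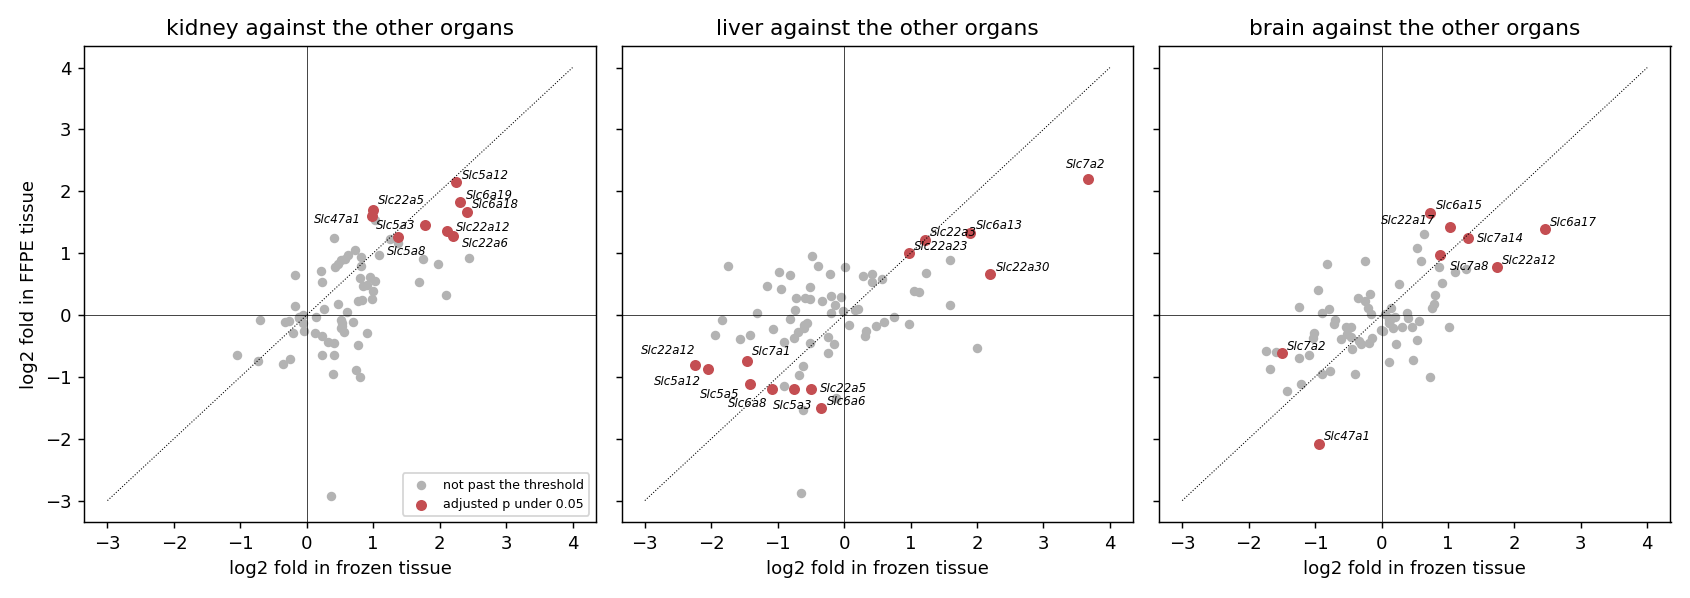
The panels plot, for kidney, liver and brain, the log2 fold against the other organs in frozen tissue (x axis) and in FFPE tissue (y axis) for the transporter genes, with called members in red and equal folds on the dotted line. Slc7a2 lies below the line in liver (3.67 frozen, 2.20 FFPE).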

How the data were processed

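One table of the series was used. Its log2 values were deposited by the authors on the scale of limma's voom, in which 0.5 reads are added before dividing by the scaled depth. Bowtie2, featureCounts, limma and the build mm10 are named in the submitters' processing notes and, per those notes, gave the counts per gene. Their versions, the strand setting and the counted features were not given in the sources used here. Whole reads were solved from the values (all within a relative tolerance of 1e-06) and serve to state depth.

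The filter kept 26758 genes that reached a log2 value of 0 in 2 profiles or more. All 8 profiles were fitted with limma 3.58.1 (R 4.3.3; moderated variances with a trend), using organ and preservation as terms. The fit left 3 residual degrees of freedom, and the prior added 19.4. p-values were adjusted by Benjamini-Hochberg over all genes of a contrast, with a threshold of 0.05. Intervals are 95% intervals of the fit. The columns carry no replicate number, and nothing says that profiles are separate animals, so a p-value describes only how these profiles spread. The 7 contrasts share profiles. The code was also run on simulated counts with known kidney changes. Those counts had a fixed spread and no effect of preservation, unlike these profiles, so that run does not bear on the p-values here.

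Members were chosen by symbol, and the role lists were chosen with earlier results of these data known. Named genes are the called members of each contrast, up to 6 members with high levels that did not pass, and all members of the sugar, monoamine, GABA, glycine, organic ion and MATE lists. Coordinates and start windows are from RefSeq (GRCm38.p6, the build named mm10); all 77 members matched by Entrez number. Some members and partner genes count in the totals but are not reported here. Input libraries were not analysed here.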

Additional observations from a re-analysis of the deposited data

Results flagged for a closer look

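For each of the 77 members the FFPE minus frozen difference was taken in the 4 organs, and a member is listed here where 1 organ lay far from the other 3, past the 95% critical value of Dixon's test. Chance gives about 1 in 20 such cases, and 8 of 77 were found. No cause was tested for any of them.

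Slc6a14, a broad amino acid carrier, was lower in FFPE than in frozen kidney by a log2 difference of -3.3988, with 1 read in FFPE kidney against 21 in frozen kidney, while its differences elsewhere were between -0.43 and 0.16. Slc22a26, an organic anion carrier of the chromosome 19 run, differed by -2.4019 in liver and by 0.10 to 0.17 elsewhere. Slc7a11, the cystine and glutamate exchanger, differed by -1.6489 in kidney, and the choline carrier Slc5a7 by -1.2737 in kidney. The taurine carrier Slc6a6 differed by -1.0551 in liver and by 0.03 to 0.23 in the other organs. The vitamin carrier Slc5a6 differed by -0.7265 in heart, the carnitine carrier Slc22a21 by -0.7038 in brain and the iodide carrier Slc5a5 by -0.5778 in heart, where the other organs had 0.33 to 0.37 for Slc5a5.

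Whether the FFPE effect of an organ differed from that of the others was tested with limma for each member. Of 308 such tests none passed at an adjusted p under 0.05, the lowest adjusted p was 0.484, and 15 had an unadjusted p under 0.05. Over all genes tested, 0 passed in each organ, so the lack of calls is not particular to the members.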

How the results depend on the processing

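No called fold of a member changed sign under the 14 alternatives, which were leaving out each profile, both filters on low values, quantile normalization, reads added in proportion to depth, leaving out mitochondrial genes and scaling factors, and voom weights. The same held without FFPE heart and FFPE kidney, an alternative chosen after seeing the data. With 1 profile left out, an organ is at times left with a lone profile that is assumed to vary like the others. The counts of members then ranged from 0 to 14 higher and 0 to 2 lower in kidney, 2 to 7 higher and 5 to 10 lower in liver, 0 to 9 higher and 1 to 8 lower in brain, and 0 to 2 higher and 0 to 12 lower in heart. They ranged from 1 to 9 higher and 0 to 7 lower for kidney and liver against brain, from 3 to 15 higher and stood at 1 lower for kidney against liver, and were 0 in both directions for FFPE against frozen. With voom weights 15 members were higher in kidney, 8 in liver and 8 in kidney and liver against brain, and 4 were lower in kidney than in liver. Over all genes, the same 4 counts rose with these weights as well. They were 504, 1871, 1336 and 1168 in turn, against 246, 1210, 1055 and 625 without weights. Kidney against liver gave 1 lower member with mitochondrial genes and scaling factors left out, where the all-gene count of lower genes also fell, from 625 to 525. Without FFPE heart and FFPE kidney, brain gave 2 higher and 0 lower members, heart 2 lower, kidney and liver against brain 2 lower, and kidney against liver 1 lower. Each of these counts also fell over all genes in that fit. Counts over all genes changed between these fits as well, and the cause of these changes was not tested. A count test on whole reads was planned and not run, because the deposited values are log2. No paired analysis was possible because the columns carry no replicate numbers. Depth limits the members with few reads: the median was 32 reads in a profile.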
